A study of Mus musculus with 4 samples.

Results

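The immunity-related GTPases (IRGs) are a family of interferon-inducible GTP-binding proteins, and 10 genes of this family were followed in mouse cardiomyocytes, of 48432 genes in the deposited table. Of these, 5 lie in a cluster on chromosome 18 (F830016B08Rik, BC023105, Gm4841, Gm4951 and Iigp1) and 5 on chromosome 11 (Irgm1, Irgm2, Igtp, Tgtp1 and Tgtp2). The members were chosen by gene symbol with their expression values in both groups known, so their differences are given as a description. The cells were contractile cells of the heart released by Langendorff perfusion, and their polyadenylated RNA was sequenced. The 2 control libraries carried the genotype label MHC, which the labels do not spell out. The other 2 libraries came from mice labelled RbFox2, which overexpress the splicing regulator RBFOX2 (Rbfox2 OE). Mice of both groups had eaten a doxycycline diet for 3 days, and all 4 libraries carry the strain label C57BL x FVB, with no further account of the strain make-up, sex, age or litter. Nothing in the labels says whether the libraries of a group came from separate animals, or which promoter drives the transgene.

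IRG proteins are made in large amounts when cells respond to interferons, above all interferon gamma. The effector proteins of the family, among them the products of Iigp1 (Irga6) and of Tgtp1 and Tgtp2 (Irgb6), load onto the membrane of vacuoles that hold intracellular parasites such as Toxoplasma and break it. The products of Irgm1, Irgm2 and Igtp (Irgm3) sit on the cell's own membranes and keep the effectors in their inactive state.

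The table gave 1 pooled value per gene and group in FPKM (fragments scaled to transcript length and library size), with a lower and an upper bound set by the authors. It held no value per library, so no spread between replicates and no p-value can be given, and the depth in reads is unknown. Rbfox2 stood at 14.7 FPKM in control cells and at 293 FPKM in Rbfox2 OE cells, the direction of its label, in a whole-gene value that cannot separate transgene from endogenous gene. Over the 11699 genes averaging at least 1 FPKM the median log2 ratio, Rbfox2 OE over control with a pseudocount of 1 FPKM, was -0.06. Rescaling to the FPKM sum without mitochondrial genes and the 10 most abundant genes moved that median to 0.06. The count at least 2-fold lower and higher was 1173 and 815 genes as deposited, and 926 and 1058 after that rescaling. For the median gene the bounds lay 38.4% of the value to either side for the control and 39.3% for Rbfox2 OE.

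Transcripts of 3 chromosome 18 members were abundant in control cardiomyocytes and close to 0 in Rbfox2 OE cells. F830016B08Rik (ENSMUSG00000090942, GRCm38 chromosome 18, 60293380 to 60303016, plus strand, protein-coding, 2 exons) stood at 57.9 FPKM in control cells (bounds 41.2 to 74.5). It stood at 1.07 FPKM in Rbfox2 OE cells (bounds 0.629 to 1.52), which is 1.86% of the control level. The lower bound of the control was 27.1 times the upper bound of Rbfox2 OE, so the bounds of the pooled values were far from overlapping. BC023105 (60441765 to 60442980, plus strand, a single-exon gene annotated as a processed pseudogene) stood at 45.2 FPKM in control cells (bounds 31.5 to 58.9). Its level in Rbfox2 OE cells was 0.898 FPKM (bounds 0.383 to 1.41), or 1.99% of the control. Gm4841 (60268305 to 60273272, minus strand, protein-coding, 2 exons) was the least abundant of these genes in control cells, at 12.7 FPKM (bounds 8.79 to 16.6). In Rbfox2 OE it stood at 0.300 FPKM (bounds 0.123 to 0.476), or 2.36% of the control. The share of the control level that was left was 1.86% to 2.36% for the 3 genes, which were chosen with these values known. These shares rest on Rbfox2 OE values of 0.300 to 1.07 FPKM. The log2 ratios of the 3 genes, -4.83, -4.61 and -3.40, placed them at ranks 3, 5 and 13 from the lowest among the genes compared. BC023105 and Gm4841 were below 1 FPKM in Rbfox2 OE cells and entered the comparison through their control values.

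The other members of the same cluster did not share this pattern. Iigp1 (ENSMUSG00000054072, chromosome 18, 60376027 to 60392634, plus strand, protein-coding), the effector Irga6, had the highest control level of the 10 members, at 59.1 FPKM (bounds 41.9 to 76.2). It stood at 37.9 FPKM in Rbfox2 OE cells (bounds 24.5 to 51.2), 64.1% of the control, with overlapping bounds and a log2 ratio of -0.63. Gm4951 (60212080 to 60247820, plus strand, protein-coding, 3 exons) was near 0 in both groups and higher in Rbfox2 OE cells. It stood at 0.280 FPKM in control cells (bounds 0.114 to 0.445) against 0.975 FPKM in Rbfox2 OE cells (bounds 0.478 to 1.47). Its bounds were separate, narrowly, and its mean fell short of 1 FPKM, so it was left out of the counts below. Iigp1 made up 33.7% of the summed FPKM of the 5 chromosome 18 genes in control cells and 92.1% in Rbfox2 OE cells.

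**Figure D1:**
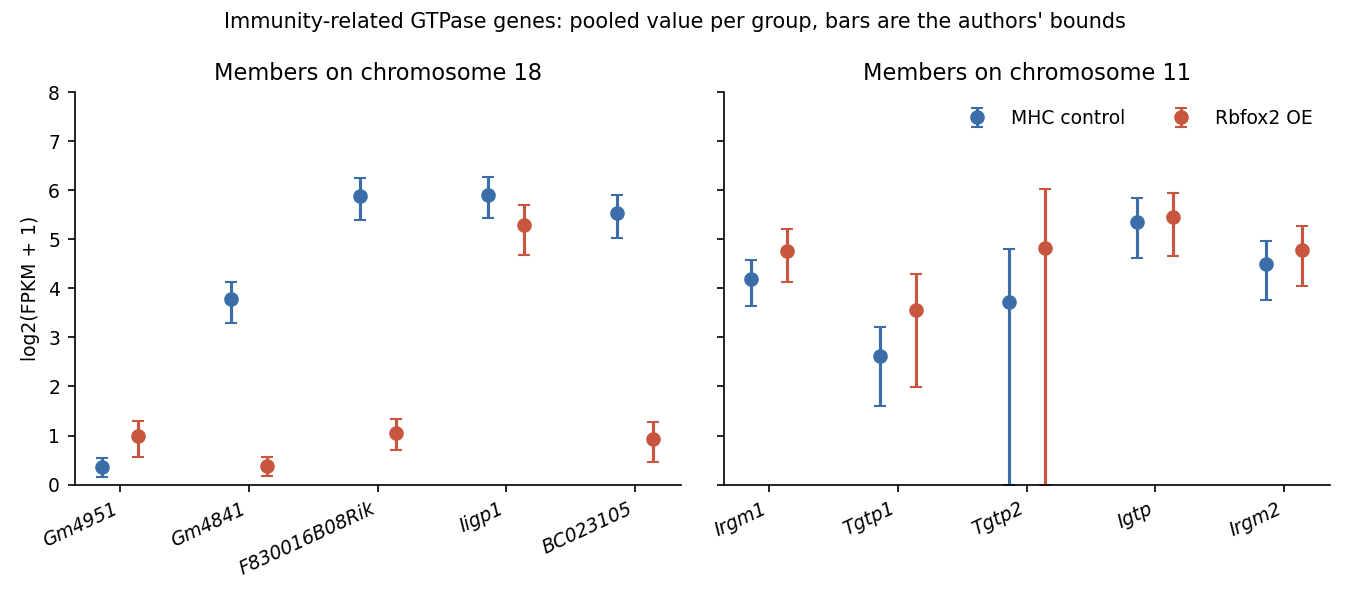
Pooled expression of the 10 members, as log2(FPKM + 1), in MHC control (blue) and Rbfox2 OE (red), with bars from the authors' lower to upper bound and genes in chromosomal order by start. F830016B08Rik, BC023105 and Gm4841 lie near 0 or 1 on this scale in Rbfox2 OE cells, while Iigp1 and the 5 chromosome 11 genes have overlapping bars.

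Of the 9 members averaging at least 1 FPKM, 3 were at least 2-fold lower in Rbfox2 OE cells, where 10% of all genes compared were. The same 3 were lower with separate bounds, a call made for 9.33% of all genes. At least 2-fold higher was 1 member, Tgtp2, against 6.97% of all genes, and 0 members were higher with separate bounds, against 6.67% of all genes. Since the members were chosen on this contrast, nothing is read from these shares.

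The 3 low genes were more alike in sequence to one another than to Iigp1 and Gm4951. Aligned by their longest annotated transcripts, BC023105 and Gm4841 were 94.4% identical over 1215 bases. F830016B08Rik was 78.1% identical to BC023105 over 1197 bases and 75.7% identical to Gm4841 over 1665 bases. Iigp1 and Gm4951 were 86.25% identical to each other over 1280 bases. Between this pair and the 3 low genes, identity was 70.5% to 72.2%, over alignments of 772 to 871 bases. On the chromosome, Iigp1 lies between the genes that were low, 73.0 kb after the end of F830016B08Rik and 49.1 kb before BC023105. The relation rests on 5 genes and is a description.

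Among annotated reference transcripts, most 50-base stretches of each cluster transcript have no exact copy in another gene. Stretches that differ by a few bases were not counted as shared, and BC023105 and Gm4841 are 94.4% identical over 1215 bases. How fragments were divided between BC023105 and Gm4841 was not tested. The libraries are labelled C57BL x FVB, and strain differences in these sequences were not tested. Of the 50-base stretches of F830016B08Rik, 1.66% also occur in a transcript of another gene. For BC023105 the share was 14.7%, all of it shared with Gm4841, and for Gm4841 it was 9.42%. Iigp1 shared 1.69% and Gm4951 4.62% of their stretches with other genes. F830016B08Rik overlaps the long noncoding RNA AC132320.1 on the opposite strand, and Gm4951 overlaps the pseudogene Gm5970 on its own strand. The library kit marks strand, but whether the counting used it is not given in the sources used here.

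The 6 nearest genes with comparable values had overlapping bounds. The locus spans 230.9 kb, and the table held 34 other rows within 1 Mb of it, of which 15 averaged at least 1 FPKM. All 15 lie on the side of BC023105. The rows on the other side or inside the cluster, such as Chsy3, did not exceed 0.377 FPKM in either group. The nearest gene compared, Smim3, starts 31.2 kb beyond the cluster and stood at 3.95 FPKM in control cells (bounds 2.53 to 5.37) and 3.01 FPKM in Rbfox2 OE cells (bounds 1.86 to 4.15). Dctn4, a dynactin subunit, had a log2 ratio of -0.80, and the splicing factor gene Rbm22 one of 0.19. Synpo, which encodes the actin-associated protein synaptopodin, had a log2 ratio of -0.54. The heparan sulfate enzyme gene Ndst1 and the ribosomal protein gene Rps14 had log2 ratios of -0.29 and 0.54.

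Among the 15 neighbours, 1 was at least 2-fold lower and 2 were at least 2-fold higher, with a median log2 ratio of 0.04. Over all genes compared these shares were 10% and 6.97%. Bounds were separate for 1 lower and 4 higher neighbours, against 9.33% and 6.67% of all genes. Camk2a, a calcium/calmodulin-dependent kinase gene 483 kb away, was the neighbour at least 2-fold lower. It stood at 31.2 FPKM in control cells and 8.95 FPKM in Rbfox2 OE cells. The neighbours at least 2-fold higher were the leukocyte genes Cd74, which encodes the class II invariant chain, and Csf1r, the receptor of a macrophage growth factor. Cd74 stood at 38.1 FPKM in control cells (bounds 26.4 to 49.8) against 128 FPKM in Rbfox2 OE cells (bounds 90.9 to 165). On chromosome 18 as a whole, 36 of the 304 genes compared other than members (11.8%) were at least 2-fold lower, and over 20 chromosomes the share, members included, ran from 7.57% to 12.7%, the highest being that of chromosome 18 itself, with 39 of 308 genes. The lowest log2 ratio of a chromosome 18 gene outside the cluster was -2.97, that of the formin gene Fhod3, which was named after its value was seen.

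**Figure D2:**
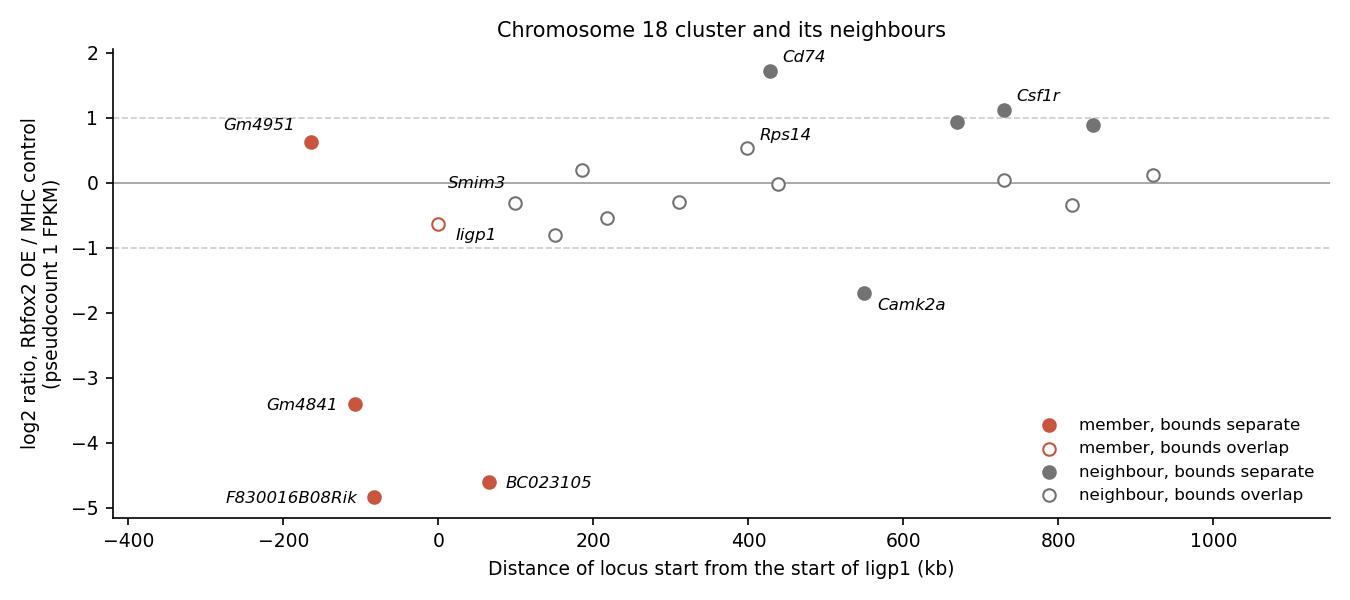
The log2 ratio of Rbfox2 OE over control for the cluster members (red) and for the neighbours averaging at least 1 FPKM (grey), against distance from the start of Iigp1 in kb; filled points have separate bounds and dashed lines mark 2-fold. F830016B08Rik, BC023105 and Gm4841 lie between -4.83 and -3.40, with Iigp1 at -0.63 between them on the chromosome, and the neighbours lie between -1.69 and 1.73.

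By a rule that measured distance in log2(FPKM + 1) over the 2 groups, BC023105 lay 0.37 from F830016B08Rik and Gm4841 lay 2.21 from it. The 5 nearest genes outside the family lay at 1.121 to 1.28, on other chromosomes, farther than BC023105 and nearer than Gm4841. They were Efnb3, an ephrin ligand gene (47.2 FPKM in control cells and 3.52 FPKM in Rbfox2 OE), 1700040L02Rik (30.2 and 2.44 FPKM) and Dusp18, a phosphatase gene (23.9 and 1.57 FPKM). Gm26127 and Gm17428 were also among them, at 44.1 and 90.9 FPKM in control cells and listed at 0 in Rbfox2 OE cells. With only 2 values per gene, this likeness covers level and direction and nothing further. The members were chosen with these same values known, so the distances of BC023105 and Gm4841 are a description.

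The 5 chromosome 11 members all had a higher value in Rbfox2 OE cells, with overlapping bounds for each, under every scaling tried. Among the regulators, Irgm1 (ENSMUSG00000046879, GRCm38 chromosome 11, 48861968 to 48871683, minus strand) stood at 17.2 FPKM in control cells (bounds 11.4 to 23.0) against 26.2 FPKM in Rbfox2 OE cells (bounds 16.4 to 35.9). Irgm2 (58199618 to 58222782, plus strand) stood at 21.5 FPKM (bounds 12.5 to 30.4) and 26.6 FPKM (bounds 15.5 to 37.8). Igtp (58199556 to 58207591, plus strand) was the most abundant of the 5 and hardly differed, at 39.9 FPKM (bounds 23.5 to 56.2) and 42.6 FPKM (bounds 24.3 to 60.9). The log2 ratios of these regulators were 0.58, 0.30 and 0.09.

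The effector genes Tgtp1 and Tgtp2 had lower control values than the regulators, wider bounds relative to their values, and the larger ratios. Tgtp1 (48985327 to 48994172, minus strand) stood at 5.17 FPKM in control cells (bounds 2.02 to 8.32) against 10.8 FPKM in Rbfox2 OE cells (bounds 2.96 to 18.6). Tgtp2 (49057194 to 49064206, minus strand) stood at 12.1 FPKM (bounds 0 to 26.8) and 27.3 FPKM (bounds 0 to 64.4). Their transcripts are 99.8% identical over 2811 bases, and 81.2% and 86.6% of their 50-base stretches occur in another gene. How fragments were divided between them is therefore uncertain, and their sum, 17.3 FPKM in control cells and 38.1 FPKM in Rbfox2 OE cells, depends less on that division. The sum had a log2 ratio of 1.10, close to those of Tgtp1 (0.94) and Tgtp2 (1.11). Both overlap Olfr56 on the opposite strand, which stood at 0.197 and 1.70 FPKM. Tgtp1 also overlaps Gm12185 on its own strand, which stood at 0.614 and 0.789 FPKM. In the deposited values Tgtp1 and Tgtp2 share a single merged locus (48904656 to 49135387) with other genes, among them Ifi47 and 9930111J21Rik2. Igtp and Irgm2 likewise share a merged locus. Igtp and Irgm2 overlap on the same strand and share 11.8% of the stretches of Igtp.

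Promoter sequences of these members are shown because interferon gamma is their known inducer. Of the 10 members, 5 matched the RefSeq promoter table (GRCm38.p6, 250 bases before to 50 after the start of the gene), and Iigp1, Gm4951, Gm4841, F830016B08Rik and BC023105 did not. The 2 motifs below were searched on both strands. The letters GAAANNGAA are the core of the interferon-stimulated response element (ISRE), bound by interferon regulatory factors. The letters TTCNNNGAA are the gamma-activated site (GAS), an element of interferon gamma-responsive promoters. Among 32851 promoter windows, 8.56% held the first, 8.30% the second and 1.07% both. All 5 matched members held the ISRE core, and 4 held both motifs, with the GAS just before the ISRE core in each. For Irgm1, Irgm2, Tgtp1 and Tgtp2 the RefSeq start differs from the start in the gene coordinates given above. The windows of Irgm1, Irgm2 and Tgtp1 lie inside those coordinates, and that of Tgtp2 lies outside them. The windows below hold 50 bases of each promoter, 5′ to 3′ on the strand of the gene, all before its RefSeq start, with motif letters in capitals.
Irgm1 (chr11:48871431-48871480, minus strand): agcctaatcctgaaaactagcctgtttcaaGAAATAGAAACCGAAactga
Irgm2 (chr11:58214877-58214926, plus strand): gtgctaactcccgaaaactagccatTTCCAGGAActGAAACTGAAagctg
Igtp (chr11:58199486-58199535, plus strand): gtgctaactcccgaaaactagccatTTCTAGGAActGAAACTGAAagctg
Tgtp1 (chr11:48992310-48992359, minus strand): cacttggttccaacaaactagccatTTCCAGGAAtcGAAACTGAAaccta
Tgtp2 (chr11:49064269-49064318, minus strand): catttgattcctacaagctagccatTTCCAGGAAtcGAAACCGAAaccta

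The windows of Irgm2 and Igtp were the same at 49 of 50 positions, and those of Tgtp1 and Tgtp2 at 45. Between these pairs 34 to 36 positions were the same, and Irgm1, which has overlapping ISRE cores and no GAS match, had 26 to 29 in common with the others. The ISRE core began 77 bases before the start in Tgtp1, 70 in Tgtp2, 64 in Irgm2, 34 in Igtp, and 30 and 24 in Irgm1. The motif matches describe letters in these windows, and binding was not measured.

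**Figure D3:**
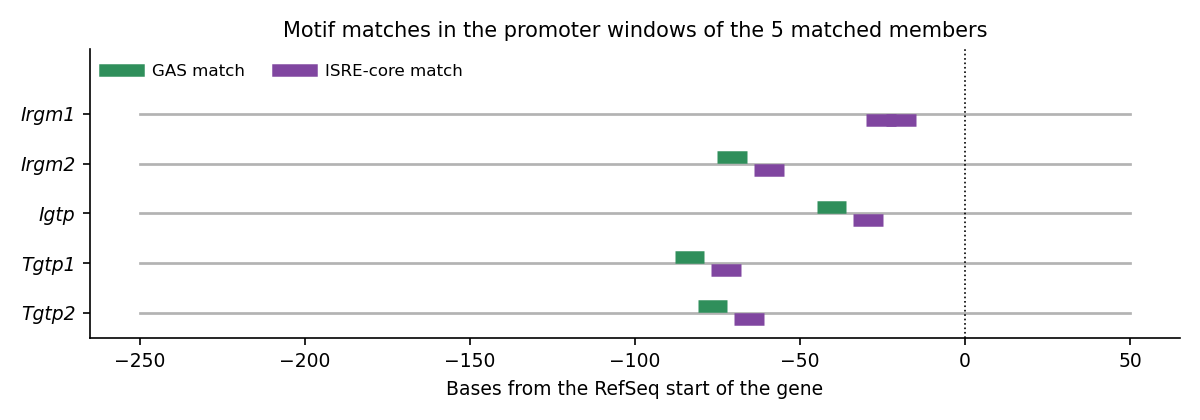
Positions of matches to the gamma-activated site (GAS, green) and the core of the interferon-stimulated response element (ISRE, purple) in the promoter windows of Irgm1, Irgm2, Igtp, Tgtp1 and Tgtp2, in bases from the RefSeq start. In all but Irgm1 the GAS match lies just before the ISRE-core match, and the matches begin between 88 and 24 bases before the start.

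The summed levels of the members are given by chromosome. The FPKM values of the 5 chromosome 18 members summed to 175 in control cells and 41.1 in Rbfox2 OE cells, and those of the 5 chromosome 11 members summed to 95.8 and 133. The chromosome 18 sum without Iigp1 was 116 and 3.25 FPKM. These sums combine the values that chose the members and carry no test.

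Other genes of the IRG family had overlapping bounds where they could be compared, and the related guanylate-binding proteins, larger interferon-inducible GTPases that act on the same vacuoles, were mostly higher in Rbfox2 OE cells. Of 8 other IRG family genes, 4 averaged at least 1 FPKM, of which 1 was at least 2-fold higher, 0 were 2-fold lower and 0 had separate bounds. Ifi47, which encodes the effector Irgd, stood at 3.19 FPKM in control cells (bounds 0 to 6.68) and 8.40 FPKM in Rbfox2 OE cells (bounds 0 to 18.01). Irgq stood at 6.37 and 6.79 FPKM and Gm12250 (Irgb10) at 5.35 and 4.79 FPKM. The remaining gene compared, 9930111J21Rik2, stood at 2.12 and 4.10 FPKM. Of the 8 guanylate-binding protein genes compared, out of 11, 6 were at least 2-fold higher, 4 of them with separate bounds, and 0 were 2-fold lower. Their median log2 ratio was 1.19, against -0.06 over all genes. The shares of all genes compared were 6.97% at least 2-fold higher, 6.67% higher with separate bounds and 10% at least 2-fold lower.

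Gbp2 had the highest mean of these, at 14.8 FPKM in control cells (bounds 10.2 to 19.3) and 54.5 FPKM in Rbfox2 OE cells (bounds 35.7 to 73.2). Gbp5 stood at 13.5 FPKM (bounds 9.36 to 17.6) and 28.1 FPKM (bounds 17.8 to 38.4), and Gbp3 at 6.01 FPKM (bounds 3.75 to 8.27) and 20.6 FPKM (bounds 12.6 to 28.5). Gbp4 and Gbp9 had log2 ratios of 1.20 and 1.29 with overlapping bounds. Gbp6 stood at 13.3 FPKM in control cells and 10.2 FPKM in Rbfox2 OE cells, with overlapping bounds, so the family was not uniform. Of the 5 guanylate-binding protein genes with a promoter in the table, 5 held the ISRE core and 2 held both motifs.

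Most of the genes that carry the interferon gamma signal did not reach the 2-fold threshold. Ifng itself was near 0, at 0.0375 FPKM in control cells and 0.0276 FPKM in Rbfox2 OE cells. Of 14 signalling genes compared, 2 were at least 2-fold higher, 1 was 2-fold lower and 1 had separate bounds, with a median log2 ratio of 0.43. The shares of all genes compared were 6.97% at least 2-fold higher and 10% at least 2-fold lower, and 6.67% were higher with separate bounds. The receptor gene Ifngr1 stood at 17.98 FPKM in control cells (bounds 12.2 to 23.8) against 38.0 FPKM in Rbfox2 OE cells (bounds 24.8 to 51.2). Its partner Ifngr2 stood at 66.3 and 50.4 FPKM. The kinase gene Jak1 stood at 36.4 and 27.6 FPKM and the transcription factor gene Stat3 at 47.7 and 51.4 FPKM. Ptpn11, which encodes the phosphatase SHP2, stood at 97.5 FPKM in control cells (bounds 50.6 to 144) and 44.4 FPKM in Rbfox2 OE cells (bounds 19.6 to 69.3). The feedback inhibitor gene Socs3 stood at 33.5 FPKM (bounds 23.4 to 43.6) and 55.3 FPKM (bounds 38.6 to 71.9). Bounds overlapped for each of these but Ifngr1. Irf1, a transcription factor gene of this pathway that was named after its values were seen, stood at 23.2 and 23.5 FPKM with overlapping bounds.

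Interferon-stimulated genes as a group were higher in Rbfox2 OE cells, the direction opposite to that of the 3 low chromosome 18 members. Of 25 such genes compared, 21 were at least 2-fold higher, 18 had higher values with separate bounds, and 0 were 2-fold lower, with a median log2 ratio of 1.61. Their log2 ratios ran from 0.39 to 2.52, each above those of Iigp1, F830016B08Rik, BC023105 and Gm4841. The members and this list were chosen with earlier results of these data known, so nothing is read from this difference. The most abundant, Ifitm3, stood at 60.6 FPKM in control cells (bounds 41.9 to 79.3) and 249 FPKM in Rbfox2 OE cells (bounds 170 to 329). Of 18 genes known as interferon gamma targets, largely of antigen presentation, 10 were at least 2-fold higher, 6 were higher with separate bounds, and the median log2 ratio was 1.01. Over all genes compared, 6.97% were at least 2-fold higher, 6.67% were higher with separate bounds and 10% were at least 2-fold lower.

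**Figure D4:**
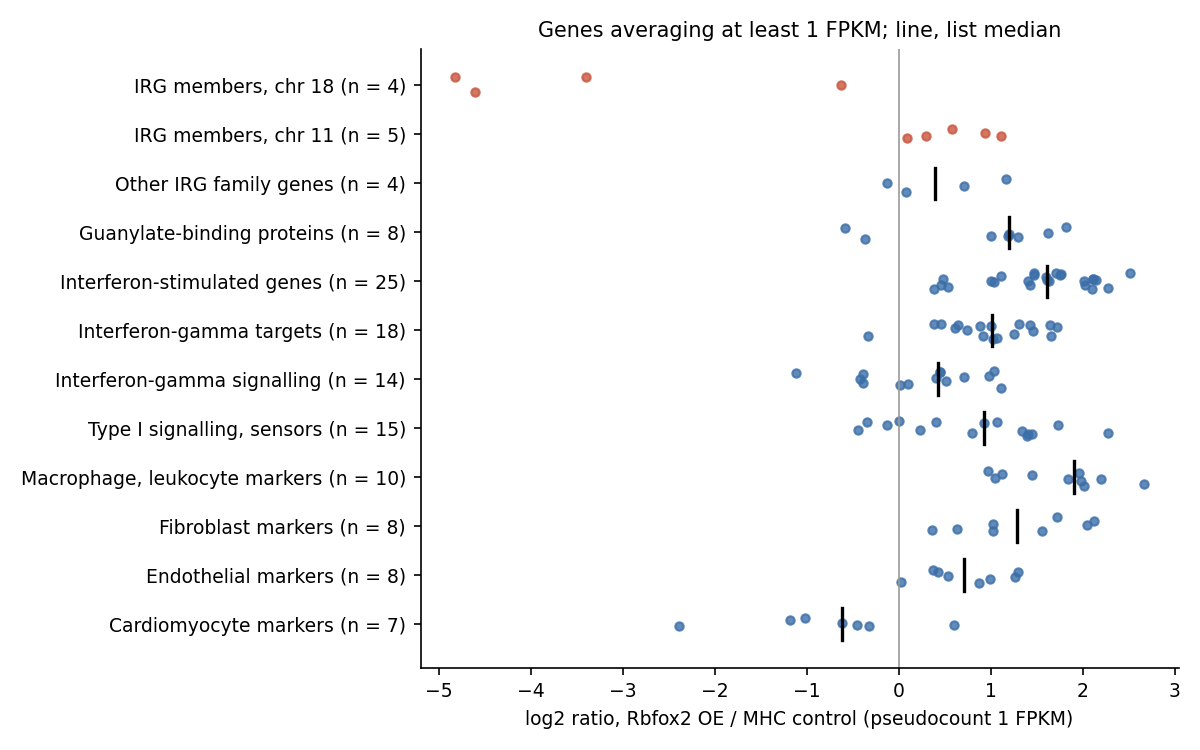
The log2 ratio of Rbfox2 OE over control for each gene averaging at least 1 FPKM, by list; red points are the IRG members, blue points other genes, and black lines list medians, drawn for no list of members. F830016B08Rik, BC023105 and Gm4841, chosen with these values known, lie left of every other point in the plot. Interferon-stimulated genes all lie right of 0.

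Markers of cells other than cardiomyocytes moved with the comparison. For reference, 6.97% of all genes compared were at least 2-fold higher and 10% at least 2-fold lower. Of 10 macrophage and leukocyte markers, 9 were at least 2-fold higher in Rbfox2 OE cells, and their summed level was 78.9 FPKM in control cells and 327 FPKM in Rbfox2 OE cells. The sums were 213 and 504 FPKM for 8 fibroblast markers, of which 6 were 2-fold higher, and 220 and 387 FPKM for 8 endothelial markers, of which 2 were. T and NK cells are the main makers of interferon gamma. Their 8 markers summed to 0.953 FPKM in control cells and 2.70 FPKM in Rbfox2 OE cells, and none exceeded 0.730 FPKM in either group. All 8 values were higher in Rbfox2 OE cells, and bounds were separate for Gzmb, named after its values were seen. Of 7 cardiomyocyte markers compared, 0 were 2-fold higher and 3 were at least 2-fold lower, with a median log2 ratio of -0.62, and their sum was 55272 and 36092 FPKM. Myh6 is listed at 0 in both groups, with a status that marks too many fragments to estimate. The log2 ratios of the 7 markers were spread from -2.39 for Ryr2 to 0.60 for Ttn. That of Iigp1 lay inside this range, close to the median. The log2 ratios of F830016B08Rik, BC023105 and Gm4841, chosen with their values known, were lower than that of any of the 7 markers. In these preparations fewer cells of a type and less RNA per cell cannot be told apart, and the part of cell composition in the values of the members was not tested.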

How the data were processed

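The deposited gene-level table held FPKM values that the authors made with Cuffdiff, 1 per group of 2 libraries, with lower and upper bounds in FPKM whose level is not stated. The submitters' processing notes name STAR 2.4.2a, Cuffdiff 2.2.1 and the build GRCm38 (mm10); the annotation is not given in the sources used here. FPKM gives no fragment counts, so depth is unknown. Because the table has no column per library, the planned limma fit was replaced by log2 ratios with a pseudocount of 1 FPKM, calls at 2-fold and calls of separate bounds, over genes averaging at least 1 FPKM.

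The members and gene lists were chosen with earlier results of these data known. All members are named, with up to 6 genes of each of 3 lists (other IRG genes, guanylate-binding proteins, interferon gamma signalling) by mean FPKM, the 6 nearest neighbours, and the 5 genes closest to F830016B08Rik. Coordinates are from GENCODE M21, which held 99.2% of the identifiers. Transcripts were compared by shared 50-base stretches and, for their best local alignment, with blastn 2.17.0, and promoters were read from RefSeq. The calculations were tested on simulated data. Alternatives changed the pseudocount, filter, threshold, scaling, status filter and window. A gene of the interferon gamma signalling list is not reported here by name.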

Additional observations from a re-analysis of the deposited data

How the results depend on the processing

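No paired analysis was possible because each group has a single pooled value in the table, and for the same reason no library could be left out in turn. The count of members at least 2-fold lower was 3 under each alternative of pseudocount, filter, scaling and status and at 4-fold, and 4 at 1.5-fold, with Iigp1. The log2 ratio ranged from -5.62 to -3.37 for F830016B08Rik, from -5.51 to -3.09 for BC023105 and from -5.00 to -1.74 for Gm4841, the smallest with a pseudocount of 5 FPKM. Iigp1 stayed between -0.64 and -0.48. The number of members at least 2-fold higher, 1 as reported, was 2 with a pseudocount of 0.1, after rescaling and at 1.5-fold, and 0 with a pseudocount of 5 and at 4-fold. Without a filter on low values, 1 member, Gm4951, was higher with separate bounds. Over all genes, a pseudocount of 5 gave 559 lower and 304 higher, 1.5-fold gave 2585 and 1938, and 4-fold gave 154 and 136. Raising the filter to 5 FPKM gave fewer genes to compare, with 492 at least 2-fold higher and 446 higher with separate bounds. Within 0.5 Mb of the cluster 1 neighbour was 2-fold higher. A pseudocount of 5 left at least 2-fold higher 2 guanylate-binding protein genes, 13 interferon-stimulated genes, 5 interferon gamma targets, 1 gene of type I signalling, and 0 of interferon gamma signalling and of the other IRG genes. Raising the filter to 5 FPKM left 4 of type I signalling and 1 of interferon gamma signalling.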

Other observations

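Genes of type I interferon signalling and of the sensors of foreign nucleic acid were compared from a further list. Of 15 genes compared, 7 were at least 2-fold higher in Rbfox2 OE, 5 had higher values with separate bounds and 0 were 2-fold lower. The shares of all genes compared were 6.97%, 6.67% and 10%. The median log2 ratio was 0.92 against -0.06 over all genes. The count of 7 was 1 with a pseudocount of 5 FPKM and 4 with a filter of 5 FPKM. The 7 other IRG family genes with a promoter in the RefSeq table held the ISRE core in 3 cases and both motifs in 2. Of 20 interferon-stimulated genes with a promoter there, 13 held the ISRE core and 4 held both motifs. Of 8 cardiomyocyte markers, 1 held the ISRE core and 0 held both.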
